A study of Rattus norvegicus with 12 samples.

Results

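Translation initiation factors load the ribosome onto mRNA, and the eIF2 kinases are the switches that slow this step under stress. The genes described here are the kinases Eif2ak1 and Eif2ak4, the eIF2 subunits Eif2s2 and Eif2s3, the eIF2B subunit Eif2b1, the scanning factor Eif1a, the eIF3 subunit Eif3d, and Eif4b, Eif4h and Eif4g2 of the eIF4 group. They are 10 of 3939 named genes and 13 of 7200 probes, since Eif1a, Eif4b and Eif4g2 have 2 probes each. They were picked by gene symbol, with the array and rat values of these same samples already known, so those values are given as a description. The fit over all genes also gave calls for them, which are no independent support.

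RNA of rats given lipopolysaccharide (LPS, a cell wall component of Gram-negative bacteria) was measured on 2-colour arrays at 6 h (3 rats, numbered 2, 4 and 6) and at 2 h (3 rats, numbered 1, 2 and 3), each against the pooled control RNA of that time. The series title gives blood as the tissue, while strain, age, dose and the pool's own treatment are not stated in the labels. Each rat was hybridised on 2 arrays, called fluor (pool in channel 1, LPS RNA in channel 2) and flip (the channels exchanged), and the mean of both counts as 1 replicate. All values are log2 ratios, read as LPS over control pool. This direction is likely and not settled. Of 8 textbook LPS-induced genes chosen with results known, 5 lay above 0 on all 12 arrays and Nfkbia on only 3, while the 2 arrays of each rat correlated between -0.23 and 0.25 over all probes. The pool is 1 control sample, so its own spread is left out of every test against 0. Nothing says whether the rats labelled 2 at both times are 1 animal.

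Markers of several blood cell types also lay away from 0, and in RNA of whole blood fewer cells of a type and less RNA per cell cannot be told apart. Median log2 ratios per rat were 0.56 to 0.80 at 6 h and 0.51 to 0.81 at 2 h for 4 measured neutrophil markers of 13. Of these 4 markers, 3 had a mean above 0 at either time. Lcn2 and Il1r2 among them are also LPS-induced genes used for the direction above. The 4 measured T cell markers of 12 had medians of -0.43 to -0.15 at 6 h and -0.30 to -0.23 at 2 h, and the 9 measured erythroid markers of 14 had medians of 0.029 to 0.39 at 6 h and 0.24 to 0.44 at 2 h. Medians were -0.43 to -0.38 at 6 h and -0.33 to -0.23 at 2 h for 2 of 9 B cell markers, and 0.21 to 0.30 at 6 h and 0.25 to 0.55 at 2 h for 3 of 8 cytotoxic cell markers. The 3 measured monocyte markers of 9 had medians of -0.23 to -0.10 at 6 h and -0.22 to -0.16 at 2 h. The part of these shifts in the values below was not tested.

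As background, eIF2 carries the initiator methionyl-tRNA to the small ribosomal subunit as a complex with GTP, and eIF2B recharges it. Each eIF2 kinase phosphorylates eIF2 in response to a different stress, after which phosphorylated eIF2 holds eIF2B and general initiation falls while mRNAs such as Atf4 are translated better. The eIF4 factors prepare the capped end of the mRNA, and eIF3 bridges mRNA and ribosome.

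RefSeq's GRCr8 table held a 300-base promoter (250 bases before the annotated start and 50 from it on) for 9 of the 10 genes, all but Eif4b. The start is that of the first transcript listed for a gene, so a stretch before it can lie within the outer bounds of the gene, as those of Eif2ak1, Eif2b1, Eif2s2 and Eif2s3 do. The 8-letter ETS motif CCGGAAGT, searched on both strands, was in 4 of these 9, against 4.99% of 18999 promoters of protein-coding genes and 7.35% of the 3251 on the array. The genes that hold it did not share a direction in the data. The stretches are shown because the motif is the sequence feature found most often among the members, with the match in capitals (ACTTCCGG is the same motif on the other strand).
Eif1a (chr18:41512205-41512236, plus strand, 81 bases before the start): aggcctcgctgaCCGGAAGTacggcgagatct
Eif2ak1 (chr12:15858216-15858247, minus strand, 71 bases before the start): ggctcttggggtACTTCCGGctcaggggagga
Eif2b1 (chr12:37686480-37686511, plus strand, 83 bases before the start): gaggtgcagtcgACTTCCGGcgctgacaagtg
Eif3d (chr7:111432851-111432882, minus strand, 130 bases before the start): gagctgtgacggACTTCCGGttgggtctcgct

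Other motifs were rarer among the members. The core TGATGNAA of the CARE element, the DNA sequence read by ATF4 with C/EBP partners, was in the Eif2s2 promoter alone, against 2.09% of the promoters on the array. A run of at least 10 pyrimidines from the annotated start, a feature of mRNAs whose translation follows mTOR, was found at Eif2s3 alone, against 0.707% of them. That run was 16 bases long and opened with T, whereas such mRNAs are known to open with C. They are shown because the pathway is known to act through such sequences, with the match or the run in capitals. The E-box CACGTG, which reads the same on both strands, was in Eif4h only, against 8.98% of promoters on the array, and the NRF1 motif was in Eif2s2 only, against 10.1%. A match is a description of letters and not a binding site.
Eif2s2 (chr3:163855587-163855618, minus strand, 36 bases before the start): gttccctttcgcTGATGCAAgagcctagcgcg
Eif2s3 (chrX:62933680-62933719, minus strand, 20 bases on each side of the start): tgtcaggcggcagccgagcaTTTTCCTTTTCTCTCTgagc

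The median size of their mean log2 ratio, sign left aside, was 0.078 at 6 h and 0.15 at 2 h, beside 0.074 at 6 h and 0.073 at 2 h over all 3939 genes. By the limma threshold across all genes (Benjamini-Hochberg adjusted p under 0.05), 1 of the 10 members was past it at 6 h (Eif4h, below 0), where 19% of all genes were (8.3% above and 10.7% below 0). At 2 h 5 were past it, Eif3d and Eif4b above 0 and Eif1a, Eif4g2 and Eif4h below 0, where 19.2% of all genes were (9.34% above and 9.82% below 0). Of these 5, Eif4b and Eif4h alone were past it without rat 2 or without rat 3 of 2 h, and Eif4b, Eif4g2 and Eif4h without rat 2 of 6 h, while Eif1a was not past it without any 1 rat. For 6 h minus 2 h 0 of 10 were past it in limma (1 at an unadjusted p under 0.05, and 1, Eif4b, past it when all 12 arrays were fitted with a dye effect and a random effect for rats), where 0.508% of all genes were (0.33% above and 0.178% below 0). Since the members were chosen with these contrasts known, nothing is read from these counts, nor from the calls of single members here and below.

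**Figure D1:**
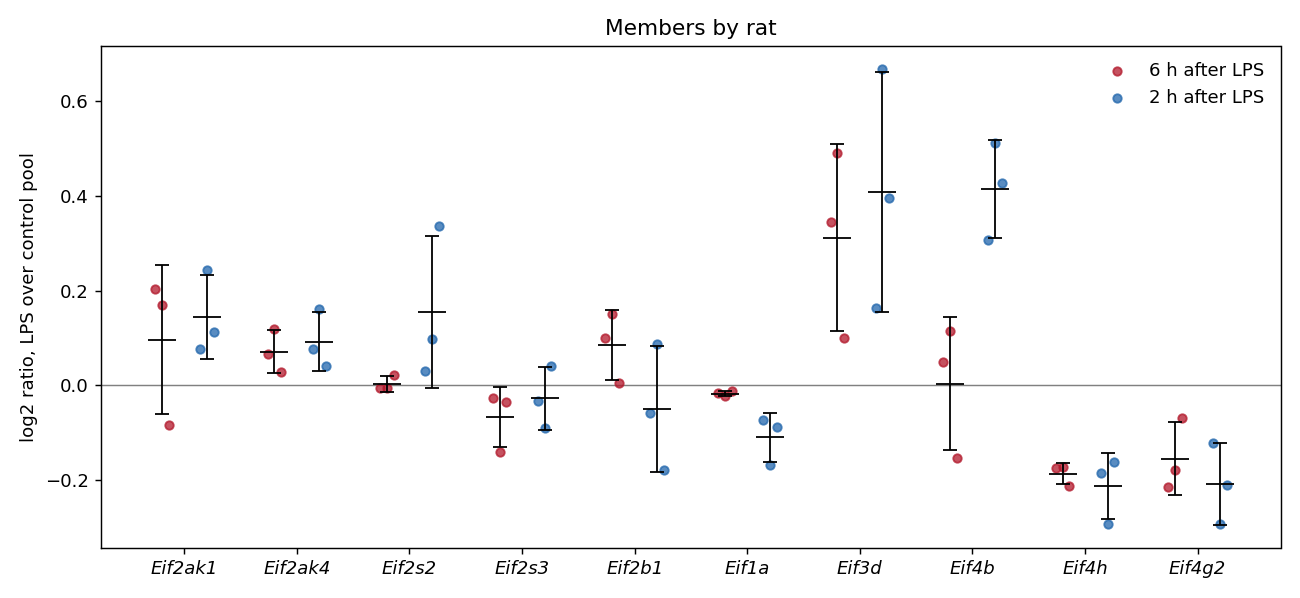
Log2 ratio of LPS over control pool (vertical axis) for the 10 members, 6 h in red left of 2 h in blue; points are rats, bars the mean and standard deviation of 3 rats. Eif4h, Eif4g2 and Eif1a sit below 0 in all 6 rats, and Eif3d and Eif2ak4 above 0 in all 6. Eif4b, Eif1a and Eif2s2 separate the times, Eif4b with the largest difference.

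Gene positions below are those of RefSeq on GRCr8, and the probes' own positions within the genes were not analysed here. Among the eIF2 kinases, Eif2ak1 (chr12:15824431-15858266) encodes the heme-regulated kinase, which guards globin synthesis in red cell precursors. Its log2 ratio was 0.20, 0.17 and -0.085 in rats 2, 4 and 6 at 6 h, and 0.077, 0.24 and 0.11 in rats 1, 2 and 3 at 2 h. The times overlapped, and rat 6 at 6 h was the 1 rat below 0. The means were 0.10 ± 0.16 at 6 h and 0.14 ± 0.088 at 2 h (SD, n = 3 each), with a difference of -0.048 (SE 0.087). Its fluor and flip arrays gave nearly the same mean (0.12 each over 6 arrays).

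Eif2ak4 (chr3:125810207-125895574) encodes GCN2, the kinase that responds to uncharged tRNA when amino acids run short. It stood at 0.066, 0.12 and 0.028 at 6 h and at 0.076, 0.16 and 0.041 at 2 h. All 6 rats were above 0, the highest at 0.16. The fluor arrays gave 0.15 and the flip arrays 0.015, and in rat 2 at 2 h the order of the arrays was the other way round (fluor -0.036, flip 0.36). The mean was 0.071 ± 0.046 at 6 h and 0.092 ± 0.062 at 2 h (SD, n = 3 each), and the difference of -0.022 (SE 0.049) was smaller than the spread between rats.

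Of the substrate complex, Eif2s2 (chr3:163834846-163855733), the beta subunit of eIF2, stood at -0.0065, -0.0057 and 0.022 at 6 h, and at 0.030, 0.10 and 0.34 in rats 1, 2 and 3 at 2 h. The times did not overlap, but only narrowly, the nearest rats being at 0.022 and 0.030. How many of all genes lack overlap was not counted, here or for the genes below, so nothing is read from a lack of overlap. The high rat at 2 h rested on 1 array: the fluor array of rat 3 read 0.62 and its flip array 0.048. Without rat 3 the 2 h mean was 0.064, against 0.15 ± 0.16 with it (SD, n = 3).

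Eif2s3 (chrX:62910292-62933936), the gamma subunit that binds GTP and the initiator tRNA, was at -0.026, -0.14 and -0.036 at 6 h and at -0.033, -0.091 and 0.042 at 2 h. It was below 0 on all 6 fluor arrays (mean -0.14) and above 0 on 4 of 6 flip arrays (mean 0.040), so its sign followed the array orientation. The gene is X-linked and has a related Y-linked copy, Eif2s3y, and whether the probe also reads that copy was not tested.

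Eif2b1 (chr12:37686149-37694830) encodes the alpha subunit of eIF2B, the part that senses phosphorylated eIF2. It stood at 0.10, 0.15 and 0.0048 at 6 h and at -0.058, 0.087 and -0.18 at 2 h. All rats at 6 h were above 0, and 2 of 3 at 2 h were below. The times overlapped, and the difference of 0.14 (SE 0.076) was 0.27 on the fluor arrays alone and 0.0047 on the flip arrays alone.

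Eif1a (chr18:41512298-41524645) encodes eIF1A, which helps the small subunit scan for the start codon. Averaged over its 2 probes it was at -0.017, -0.023 and -0.012 at 6 h and at -0.072, -0.17 and -0.089 at 2 h. The 6 h values average opposite signs, with fluor arrays at -0.039, -0.098 and -0.063 and flip arrays at 0.0045, 0.052 and 0.039. The rats of the times did not overlap, and the gap of the means was 0.093 (SE 0.043). That gap was mainly that of probe 2274, at 0.025 ± 0.018 at 6 h and -0.11 ± 0.020 at 2 h (SD, n = 3 each). Probe 5418 was at -0.060 ± 0.0076 at 6 h and -0.11 ± 0.094 at 2 h. A close relative, Eif1ax, lies on the X chromosome, and whether the probes tell them apart was not tested.

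Eif3d (chr7:111420351-111432761) encodes the eIF3 subunit that can itself bind the cap of some mRNAs. It had the largest mean over the 6 rats among the members. It stood at 0.34, 0.49 and 0.10 in rats 2, 4 and 6 at 6 h, and at 0.16, 0.67 and 0.40 in rats 1, 2 and 3 at 2 h. Every rat was above 0, at 0.10 to 0.67, and the times overlapped. The means were 0.31 ± 0.20 at 6 h (1.24-fold) and 0.41 ± 0.25 at 2 h (1.33-fold; SD, n = 3 each). The SD over rats was above the median SD of all genes, 0.059 at 6 h and 0.070 at 2 h. In every rat the fluor array read higher than the flip array, with means of 0.54 and 0.18. Eif3d was past the threshold at 2 h, but not without rat 2 or without rat 3 of that time, nor without rat 2 of 6 h.

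Eif4b (chr7:135085259-135107054) encodes the cofactor that stimulates the helicase eIF4A. Averaged over its 2 probes it was at 0.050, 0.11 and -0.15 at 6 h and at 0.31, 0.51 and 0.43 at 2 h. The rats did not overlap between the times, and it was the member with the largest difference, -0.41 (SE 0.084), with means of 0.0034 ± 0.14 at 6 h and 0.42 ± 0.10 at 2 h (1.33-fold; SD, n = 3 each). Both probes were higher at 2 h in their means. Probe 3537 was at 0.016 ± 0.30 at 6 h and 0.56 ± 0.29 at 2 h, and its rats overlapped, since rat 4 at 6 h was above rat 1 at 2 h. Probe 4927 was at -0.0091 ± 0.080 at 6 h and 0.27 ± 0.12 at 2 h, without overlap. Again the fluor array was above the flip array in every rat. At 2 h the fluor arrays alone gave 0.62 and the flip arrays alone 0.22. The median of 2 measured platelet markers of 6 also separated the times, at -0.42, -0.025 and -0.10 in the rats of 6 h and 0.38, 0.33 and 0.071 in those of 2 h. By their means, 1 of these 2 markers lay above 0 at 6 h and 2 at 2 h, and 0 passed limma's threshold for 6 h minus 2 h. The part of platelets in the Eif4b values was not tested.

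**Figure D2:**
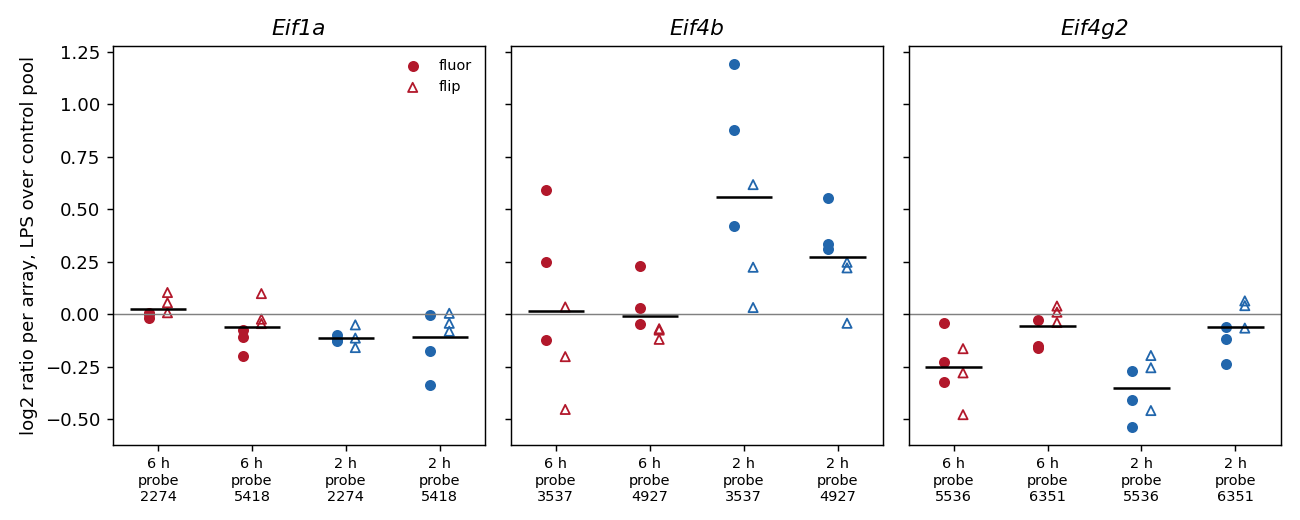
Log2 ratio per array (vertical axis) for each probe of the 3 members with 2 probes, 6 h in red left of 2 h in blue; filled circles are fluor arrays, open triangles flip arrays, and the bar is the mean of 3 rats. The 2 probes of Eif4g2 differ in level, and those of Eif4b are both higher at 2 h.

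Eif4h (chr12:27719527-27736350) encodes a relative of Eif4b that also stimulates eIF4A. It stood at -0.17, -0.17 and -0.21 at 6 h and at -0.19, -0.29 and -0.16 at 2 h. All 12 arrays lay below 0, between -0.34 and -0.12, and the fluor and flip means were -0.19 and -0.21. The means were -0.19 ± 0.022 at 6 h (0.88-fold) and -0.21 ± 0.070 at 2 h (0.86-fold; SD, n = 3 each). Eif4h was past the threshold at both times. At 2 h this held without any 1 rat, and at 6 h it was lost without rat 2 or rat 6 of that time.

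Eif4g2 (chr1:174616102-174628252) encodes DAP5, a relative of the scaffold eIF4G that lacks the cap-factor binding part and serves cap-independent initiation. It stood at -0.22, -0.18 and -0.068 at 6 h and at -0.12, -0.29 and -0.21 at 2 h. Averaged over its 2 probes, all 12 arrays were below 0 and the times overlapped. The probes differed. Probe 5536 was at -0.25 ± 0.13 at 6 h and -0.35 ± 0.11 at 2 h, below 0 on every array (SD, n = 3 each). Probe 6351 was at -0.056 ± 0.022 at 6 h and -0.063 ± 0.078 at 2 h (SD, n = 3 each). It was above 0 on 4 of 12 arrays, all of them flip arrays, and below 0 on every fluor array. The gene-level value thus rests mainly on probe 5536. Over all genes, 6.37% lay below 0 on all 12 arrays.

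The reading of the flip arrays bears on each of these values. The value table does not state whether their sign had already been turned, and they were used as deposited. Multiplied by -1 before averaging, they leave only what differs between the orientations. In that reading Eif4h stood at 0.010 at 6 h and 0.0084 at 2 h, and Eif2ak1 at 0.0032 at 6 h and 0.0013 at 2 h. Eif3d kept 0.19 at 6 h and 0.17 at 2 h, and Eif4b 0.15 at 6 h and 0.20 at 2 h. So Eif4h and Eif2ak1 had nearly equal means in both orientations, whereas part of the Eif3d and Eif4b values differed by orientation. If the sign had not been turned, these second values would be the ratios, and Eif4h would lie near 0. Of the textbook LPS-induced genes, Il1b as deposited averaged 4.20 on fluor and 3.60 on flip arrays at 2 h, and 2.26 and 1.83 at 6 h. The orientations differed in sign at 2 h for Tnf (-0.15 on fluor, 0.15 on flip arrays) and Nfkbia (0.093 and -0.069).

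**Figure D3:**
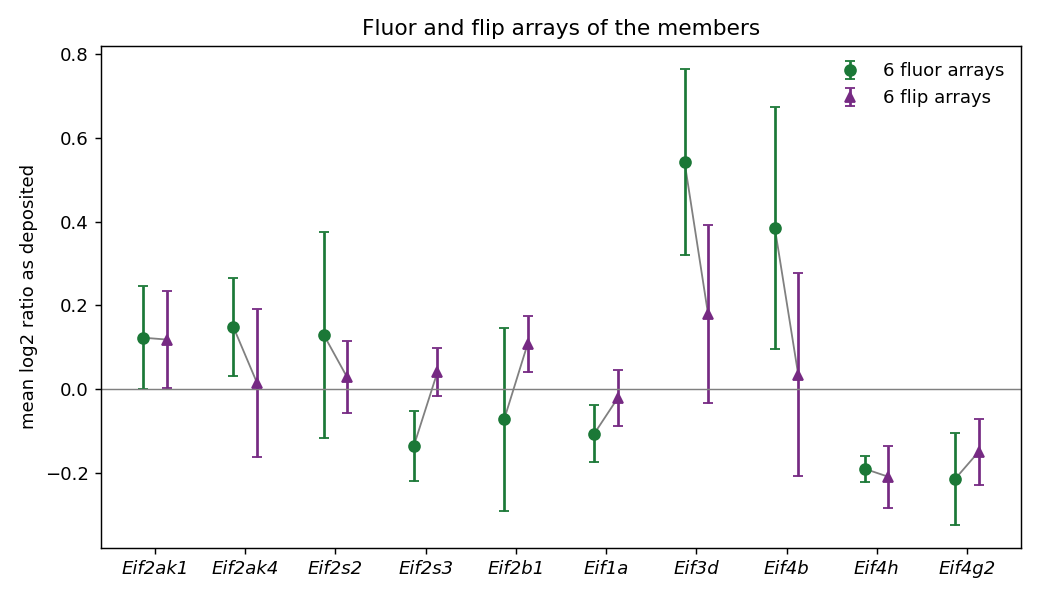
Mean log2 ratio as deposited (vertical axis) of each member over the 6 fluor arrays (circles) and the 6 flip arrays (triangles), both times together; bars are standard deviations over arrays. Eif4h and Eif2ak1 lie close in both orientations, and Eif4g2 is at -0.21 on fluor and -0.15 on flip arrays. Eif3d and Eif4b are higher on the fluor arrays.

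Erythroid markers also differed between the rats of a time. The median of the 9 measured erythroid markers was 0.21, 0.39 and 0.029 in rats 2, 4 and 6 at 6 h and 0.24, 0.44 and 0.34 in rats 1, 2 and 3 at 2 h. At either time Eif3d and the probe average of Eif4b ranked the rats in the same order as this median. Of the Eif4b probes 3537 did so, but 4927 did not. Probe 4927 was lowest in rat 4 at 6 h (-0.083), where the erythroid median was highest. At 2 h it was highest in rat 1 (0.39), where that median was lowest. Eif2ak1 ranked the rats as the median did at 2 h, and at 6 h it was lowest in the same rat. Eif2ak4, Eif2b1 and Eif4h shared the order at 6 h but not at 2 h. Eif1a ran in the reverse order at both times, and Eif4g2 did at 2 h. With so few rats a shared order is easily met by chance, and how many of all genes share it was not counted. Of these 9 markers 1 rose and 2 fell at 6 h, and 5 rose and 1 fell at 2 h, while 19% and 19.2% of all genes were called. The part of red cell precursors in the members' values was not tested.

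**Figure D4:**
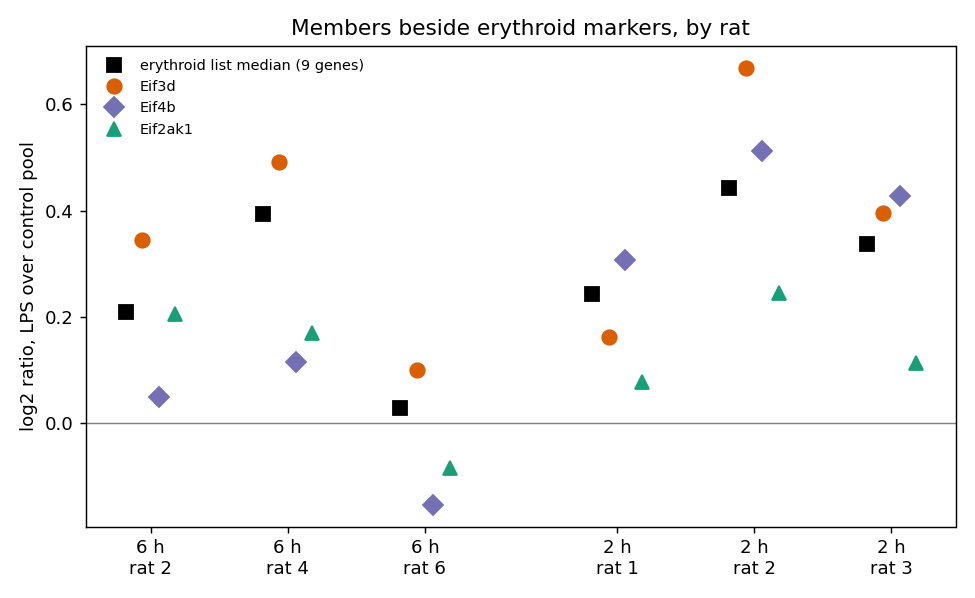
Log2 ratio of LPS over control pool (vertical axis) in each rat, 6 h left and 2 h right, for Eif3d, Eif4b, Eif2ak1 and the median of 9 erythroid markers. Eif3d is highest in rat 4 at 6 h and in rat 2 at 2 h, where the erythroid median is highest too.

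The genes with the most similar values over the 12 arrays were sought by root mean square (RMS) difference. This was done for the 3 members with the largest mean, sign left aside. A shared difference between fluor and flip arrays also counts as similarity here, and its part was not tested. For Eif3d (RMS of its own values 0.45) they were Alas1, Fdx1 and Map1lc3b, at 0.089, 0.092 and 0.10. Alas1 encodes the ubiquitous first enzyme of heme synthesis, Fdx1 a mitochondrial ferredoxin and Map1lc3b an autophagosome protein. For Eif4b (0.37) they were Ptpro, a receptor phosphatase (0.053), Gclm, a subunit of the enzyme that starts glutathione synthesis (0.079), and Dennd5a (0.11). Ptpro averaged 0.032 ± 0.16 at 6 h and 0.41 ± 0.13 at 2 h, close to Eif4b itself. For Eif4h (0.21) they were the ribosomal protein gene Rps20 (0.062), the calpain inhibitor Cast (0.066) and the membrane insertase Oxa1l (0.067).

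The other initiation factors gave no calls. Over all genes 19%, 19.2% and 0.508% passed limma's threshold at 6 h, at 2 h and between the times. Of 50 listed genes 12 were measured, and 0 passed it in any of these (1, 3 and 1 at an unadjusted p under 0.05). Their median was 0.017 at 6 h and 0.012 at 2 h, beside 0.0069 and -0.0070 over all genes. Eif3c, another eIF3 subunit, had the widest spread, at 0.34 ± 0.50 at 6 h and 0.32 ± 0.57 at 2 h (SD, n = 3 each; named after its values were seen). It reached 0.88 in rat 2 at 6 h and 0.90 in rat 2 at 2 h, but was at -0.25 in rat 3 at 2 h, where Eif3d was at 0.40.

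Among genes that set the phosphorylation of eIF2, Ppp1cb rose and Ppp1ca and Nck1 fell at both times. Of 15 listed, 8 were measured: 1 rose and 3 fell at 6 h, and 1 rose and 2 fell at 2 h, while 19% and 19.2% of all genes were called. The list median was 0.0080 at 6 h and -0.053 at 2 h. The 2 measured catalytic subunits of protein phosphatase 1, which removes the phosphate from eIF2 when guided by its partners, moved in opposite directions. Ppp1cb rose by 0.23 ± 0.12 at 6 h (adjusted p = 0.0268) and by 0.38 ± 0.10 at 2 h (adjusted p = 0.00465; SD, n = 3 each, limma), and was above 0 on all 12 arrays. Ppp1ca was lower, at -0.17 ± 0.095 at 6 h (limma adjusted p = 0.0299) and -0.26 ± 0.046 at 2 h (adjusted p = 0.00744). The 6 h calls of Ppp1cb and Ppp1ca were both lost without rat 2 or without rat 4 of 6 h.

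The adaptor Nck1, which binds this phosphatase complex, was at -0.18 ± 0.033 at 6 h (limma adjusted p = 0.0151) and -0.13 ± 0.074 at 2 h (adjusted p = 0.0484). Gcn1, the protein that activates GCN2 on the ribosome, was at -0.095 ± 0.022 at 6 h (limma adjusted p = 0.0487) and -0.049 ± 0.010 at 2 h, not past the threshold. The stress-induced phosphatase guide Ppp1r15a was at 0.19 ± 0.14 at 6 h and 0.059 ± 0.34 at 2 h, not past it either (named after its values were seen). The Gcn1 call was lost without any 1 of 5 rats, the exception being rat 2 of 2 h, the Nck1 call at 6 h without any 1 rat of 6 h, and that at 2 h without any 1 of the 6 rats.

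Downstream, the list of ATF4 and its targets had 11 of 32 genes measured. In this list 1 rose and 1 fell at 6 h and 1 rose at 2 h, while 19% and 19.2% of all genes were called. Its median was 0.037 at 6 h and 0.014 at 2 h. Asns, asparagine synthetase, stood at 0.035, 0.18 and 0.00037 at 6 h and at 0.43, 0.44 and 0.53 at 2 h. It rose at 2 h (0.47 ± 0.054, limma adjusted p = 0.000876) and not at 6 h (0.072 ± 0.10, adjusted p = 0.262), and the rats did not overlap between the times. The difference between the times missed the threshold (-0.40, SE 0.060, limma adjusted p = 0.0512). It passed with arrays centred on their median (-0.41), with robust eBayes (-0.40) and without rat 4 of 6 h (-0.45), and missed under the other alternatives.

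Psat1, an enzyme of serine synthesis, fell at 6 h (-0.33 ± 0.15, limma adjusted p = 0.0393) and was at 0.23 ± 0.22 at 2 h (adjusted p = 0.103). Its difference of -0.55 (SE 0.12) had limma adjusted p = 0.102, but passed the threshold when all 12 arrays were fitted with a dye effect and a random effect for rats. Ddit3, which encodes CHOP, passed at 6 h (0.25 ± 0.19, limma adjusted p = 0.0378), but its arrays disagreed by orientation: over both times the fluor arrays averaged -0.32 and the flip arrays 0.68. The Ddit3 call was lost without rat 2 of 6 h (adjusted p = 0.200), among others. That of Psat1 was lost without any 1 rat of 6 h, without rat 2 of 2 h, on fluor arrays alone and with scaled arrays, among others.

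Of 35 genes of eIF4E and mTOR signalling 18 were measured. While 19% of all genes were called at 6 h and 19.2% at 2 h, 0 of this list rose and 2 fell at both times. These were Map2k2, the kinase MEK2 (-0.49 ± 0.029 at 6 h, limma adjusted p = 0.000205, and -0.41 ± 0.065 at 2 h, adjusted p = 0.000704), and the stress kinase Mapk14, p38 alpha (-0.18 ± 0.030 at 6 h, limma adjusted p = 0.0124, and -0.13 ± 0.062 at 2 h, adjusted p = 0.0418). Map2k2 was below 0 on all 12 arrays. The translation repressor Eif4ebp1 stood at -0.079 ± 0.046 at 6 h and -0.021 ± 0.080 at 2 h (named after its values were seen). The list median was 0.034 at 6 h and 0.028 at 2 h. The Mapk14 call at 2 h was lost without any 1 rat, and that at 6 h without rat 2 or rat 6 of 6 h.

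Of 23 cytosolic aminoacyl-tRNA synthetase genes and their partners, 10 were measured and 0 passed limma's threshold at either time (2 at 6 h and 1 at 2 h at an unadjusted p under 0.05). Over all genes 19% passed at 6 h and 19.2% at 2 h. The list median was 0.035 at 6 h and 0.0087 at 2 h.

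**Figure D5:**
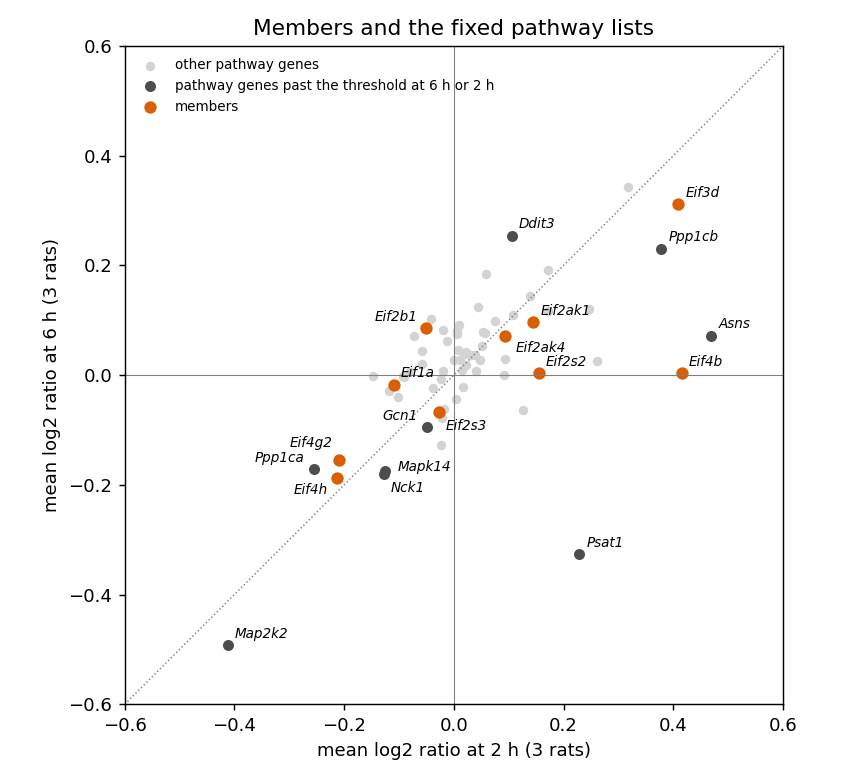
Mean log2 ratio of 3 rats at 6 h (vertical axis) against that at 2 h (horizontal axis) for the members (orange) and the genes of the 5 pathway lists (grey, dark where past the limma threshold at either time); the dotted line marks equal values. Eif4b and Asns lie far to the right of the line, at about 0.42 and 0.47 at 2 h. Psat1 lies farther from it, at about 0.23 at 2 h and -0.33 at 6 h.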

How the data were processed

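The log2 ratios were used as deposited by the submitters, 1 value per probe and array for 7200 probes and 12 arrays. Per the labels, a rat's fluor and flip arrays carry the LPS RNA and the control pool in exchanged channels. The sources used here do not give the dyes, scanner, background correction or normalization, and no intensities were used, so brightness over background is unknown. Array medians lay between -0.020 and 0.0083, and 242 to 298 probes per array held 1 repeated value, which no member did. The platform annotation named 4190 probes with 1 gene symbol, 46 with several and 2964 with none; 3939 genes were tested, probes of a gene being averaged. The 2 arrays of a rat were averaged (no column went unused), and limma 3.58.1 in R 4.3.3 fitted 6 rats in 1 model with lmFit and eBayes, after a test on simulated data. Ratios were tested against 0 and as 6 h minus 2 h, which also holds any difference between the pools. Members and lists were chosen with earlier results of these data known, as were the motifs. Named genes are the members, list genes past the threshold (at most 5 per list and contrast) and the 3 nearest patterns of the 3 members with the largest mean, sign left aside. Alternatives changed the scaling, orientation, missing-value, probe and model choices and left out each rat.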

Additional observations from a re-analysis of the deposited data

Results flagged for a closer look

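Within the 6 arrays of each time, 20 groups of member values were examined for an array far from the others, and chance gives about 1 in 20. Eif2s2 at 2 h had a high array, 0.62 on the fluor array of rat 3. Eif4h at 6 h had a low array, -0.25 on the flip array of rat 6, with the other 5 between -0.18 and -0.17.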

How the results depend on the processing

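No paired analysis was possible because the 6 h rats (2, 4 and 6) and the 2 h rats (1, 2 and 3) share only 1 replicate number. Of the member values under the alternatives, 442 moved by less than 1 SD and the others by more or, for Eif4h, to the other side of 0 from a value past the threshold. Most alternatives could not have moved a member value that far. Leaving out 1 of 3 rats shifts a mean by less than 1 SD. Robust fitting, the dye and rat effects and missing repeated values left member values as they were. The 442 are therefore no measure of stability. In all 36 member values changed sign, 8 of them with the flip arrays multiplied by -1 and 8 on flip arrays alone. The sign of the flip arrays mattered most: with these multiplied by -1, Eif4h stood at 0.010 at 6 h and 0.0084 at 2 h, Psat1 at 0.14, Ddit3 at -0.47, Ppp1ca at 0.099 and Map2k2 at 0.069 at 6 h, and Nck1 at 0.047 at 2 h. On fluor arrays alone Ddit3 was at -0.22 at 6 h. Members past the threshold at 6 h numbered 1 (0 to 3 without 1 rat), but 3 with the flip arrays multiplied by -1, 4 on fluor arrays alone, 3 with arrays scaled to 1 median size, 3 when all 12 arrays were fitted with a dye effect and a random effect for rats, and 2 after quantile normalization, array centring, subtraction of neighbouring probes, robust fitting or probe-level fitting. At 2 h they numbered 5 (2 to 4 without 1 rat), but 2 with the flip arrays multiplied by -1 and 1 on flip arrays alone. Over all genes, the count at 6 h was 749 (306 without rat 2 of 6 h to 927 without rat 2 of 2 h), 1461 with the flip arrays multiplied by -1 and 1202 on fluor arrays alone. At 2 h it was 755 (323 without rat 2 of 2 h to 668), 1142 on fluor arrays alone and 336 on flip arrays alone. For 6 h minus 2 h it was 20 (2 to 31 without 1 rat), 0 with the flip arrays multiplied by -1, 4 on fluor and 5 on flip arrays alone, 8 after quantile normalization, 10 after subtraction of neighbouring probes and 131 with the dye and rat effects. The lists count genes past the threshold at 6 h or 2 h. The ATF4 list had 3 (1 to 2 without 1 rat), 6 with the flip arrays multiplied by -1, 5 on flip arrays alone, and 1 when scaled or fitted by probe. The eIF2 regulators had 4 (2 to 5), and 2 with the flip arrays multiplied by -1 or alone. The eIF4E and mTOR list had 2 (1 to 4), 6 with the flip arrays multiplied by -1, 8 on fluor arrays alone, 4 when scaled or quantile-normalized, and 5 with neighbours subtracted or with the dye and rat effects. The other initiation factors had 0 (0 to 1), 4 with the flip arrays multiplied by -1 or with the dye and rat effects, 3 on fluor arrays alone, and 1 on flip arrays alone, with neighbours subtracted or fitted by probe. The synthetases had 0 (0 without any 1 rat), 6 with the flip arrays multiplied by -1, and 2 on fluor arrays alone, on flip arrays alone or with the dye and rat effects. The cause of these moves was not tested, and the number of arrays limits the precision of every value.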
